A study of Mus musculus with 21 samples.

Results

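Reference 4 at 0.2 µM against PBS is the comparison of 3 libraries of primary mouse hepatocytes given the RNAi agent Reference 4 at 0.2 µM with 3 libraries of hepatocytes given the vehicle PBS. The 6 libraries were picked by the agent and dose in their titles out of 21 libraries in all. All 21 come from wild-type (WT) primary hepatocytes collected on Day 1. The other 5 groups, also of 3 libraries each, received Reference 4 at 2 µM or the agents TTR-1236 and TTR-1186 at 0.2 µM and 2 µM. All 3 agents are directed against Ttr, and their sequences are not used here. Whether the libraries of 1 group stem from different animals, donors or dishes is not stated in the labels, so every p-value measures the spread between these libraries, which may be technical. The labels state no age, sex or strain of the animals.

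A small interfering RNA is taken up by Argonaute proteins, and its guide strand directs cleavage of the mRNA it pairs with, so that the RNA of the targeted gene is lost. Ttr encodes transthyretin, which hepatocytes secrete and which carries thyroxine and, together with retinol-binding protein, retinol in blood. Because a guide can also pair with other mRNAs through its seed, and because oligonucleotides can engage RNA sensors, the remainder of the transcriptome is commonly read alongside the target. Hepatocytes in culture also make plasma proteins, answer insulin and cytokines and lose part of their identity with time, and the gene lists described here cover those functions.

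Expression was read with QuantSeq, which sequences the 3′ end of polyadenylated RNA, so each value counts reads at about 1 position of a transcript. Levels are CPM as deposited, the reads of a gene scaled to a fixed total per library, over 9657 genes. The 3 Reference 4 libraries held 14158740, 14971332 and 14825502 reads over these genes, and the PBS libraries 14324315, 19109736 and 26340870. PBS replicate 3 stood apart from the other PBS libraries. Compared over all genes, its reads gave a chi-square of 183.7 and 175.9 per degree of freedom against PBS replicates 1 and 2, whereas those 2 gave 40.11 against each other and the Reference 4 pairs 44.5 to 55.43. Mitochondrial ribosomal RNA took 0.797% of its reads, against 2.70% to 3.26% in the other PBS libraries and 2.13% to 3.498% in the Reference 4 libraries. The group means of that share were 2.70% and 2.25%, an exact two-sided permutation p of 0.7 (0.7 adjusted over 4 shares), where 0.1 is the smallest that 3 against 3 allows. The count of calls over all genes is therefore given with and without PBS replicate 3. For gene lists this is done only in part, and a value given once is the one with every library.

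The libraries carried RNA of most hepatocyte markers, at levels far apart. Of 7 hepatocyte markers 6 were among the genes tested, with Alb at 3662 ± 132 CPM (SD, n = 3) under Reference 4 and 5182 ± 728 CPM in PBS. Apoa1 was at 2450 ± 461 against 2331 ± 575 CPM. Hnf4a was at 24.1 ± 3.13 against 42.9 ± 11.4 CPM, Cps1 was low at 6.96 ± 1.02 against 12.8 ± 3.80 CPM, and Tat was not among the genes. Of 12 Kupffer cell and macrophage markers 2 were present, Cd68 and Csf1r, and the defining Clec4f, Adgre1, C1qa and Marco were not among the 9657 genes. Their summed level was 85.1 to 184 CPM under Reference 4 and 79.6 to 101 CPM in PBS. For sinusoidal endothelium 2 of 10 markers were present (12.4 to 31.9 against 18.5 to 19.6 CPM), for stellate cells and fibroblasts 3 of 12 (38.7 to 53.5 against 25.7 to 43.3 CPM) and for cholangiocytes 2 of 7 (24.5 to 43.2 against 29.1 to 42.3 CPM). None of 7 lymphocyte and neutrophil markers and none of 4 erythroid markers were among the genes. No marker of these lists passed the threshold in limma, with 2 hepatocyte markers lower and Acta2 higher at an unadjusted p under 0.05. In bulk samples of this kind, fewer cells of a type and less RNA per cell cannot be told apart.

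Few genes other than Ttr passed the threshold under Reference 4 at 0.2 µM, and most of those that did fell. In limma on log2(CPM + 1), with a Benjamini-Hochberg adjusted p under 0.05, 16 of 9657 genes differed from PBS (0.166%). Of these, 13 fell (0.135%) and 3 rose (0.0311%). Besides Ttr, the falls were Igfbp1, Fga, Ccl2, Jak1, Vcl, Tinagl1, H6pd, Aacs, Uhmk1, Gtf2a2, Pkn3 and Zdhhc12, and the rises were Hps4, Ankrd23 and Gm42417. At an unadjusted p under 0.05 there were 1426 genes (14.8%), 434 higher and 992 lower. Counts at that level in the gene lists below are to be read beside these. In 1017 genes (10.5%) all 3 Reference 4 libraries lay below all 3 PBS libraries, and in 406 (4.2%) all lay above. The median log2 fold change of all genes was -0.05, the median absolute value 0.27 and the median standard error 0.29. Of 274 genes at least 2-fold lower in the fit 11 were called, and of 157 at least 2-fold higher 3 were called.

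The number of calls moved with single libraries. It was 175 (1.81%) without PBS replicate 3, with 91 higher and 84 lower, and these held all 16 genes called with every library. It was 2 without PBS replicate 1, 6 without PBS replicate 2, 3 without Reference 4 replicate 2 and 29 without Reference 4 replicate 3. Igfbp1 and Ttr passed whichever of the 6 libraries was left out. Fga passed in 5 of the 6 fits and Ankrd23 and Gm42417 in 4. Tinagl1, Vcl and Ccl2 passed in 3, Uhmk1, H6pd, Hps4, Aacs and Gtf2a2 in 2, and Pkn3, Zdhhc12 and Jak1 in 1, the fit without PBS replicate 3. DESeq2 on the recovered reads called 88 genes (0.911%) and edgeR 14 (0.145%). In none of the leave-out fits did a called gene turn its direction.

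**Figure D1:**
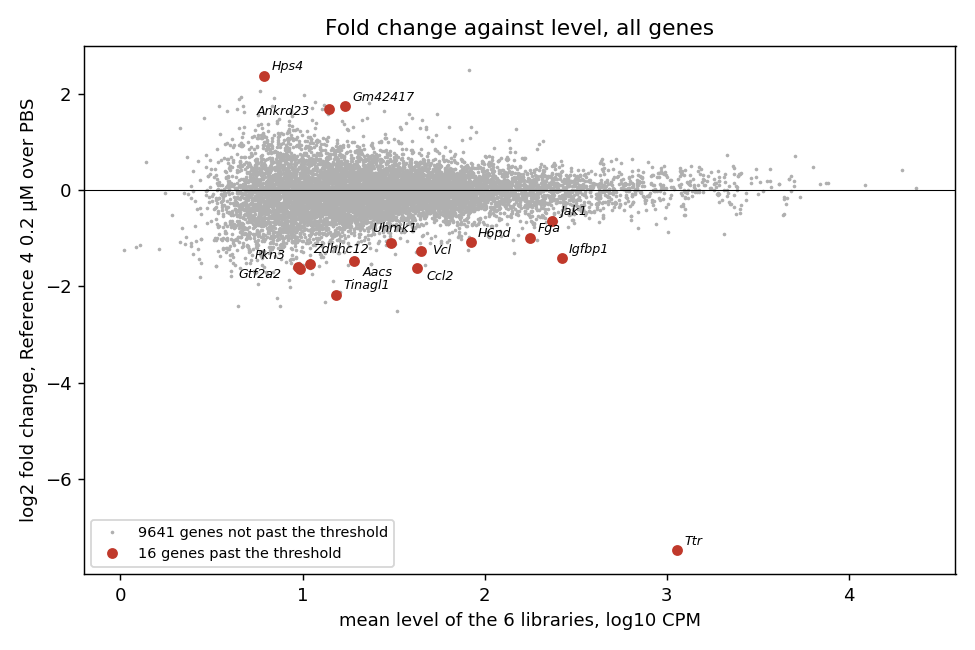
Each point is a gene, with its mean level over the 6 libraries on the x axis (log10 CPM) and its log2 fold change of Reference 4 0.2 µM over PBS on the y axis. The 16 genes past the threshold are drawn in red and named, Ttr alone lies below -7, and the other 15 lie between -2.17 and 2.37.

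Ttr, the targeted gene, was the deepest fall. In mm10 it occupies 20665280 to 20674321 of chromosome 18 on the plus strand. It stood at 17.2, 17.6 and 4.99 CPM in the Reference 4 libraries, from 244, 263 and 74 reads, and at 2272, 2168 and 2336 CPM in PBS. Exact 95% Poisson intervals for the treated libraries were 15.1 to 19.5, 15.5 to 19.8 and 3.92 to 6.27 CPM, so replicate 3 lay below the other treated libraries by more than counting error, which is all that these intervals cover. The groups were far apart, with a log2 fold change of -7.48 ± 0.42 (SE, adjusted p = 1.44e-10 in limma) and a treated mean of 0.587% of the PBS mean. The log2 fold change was -7.45 without PBS replicate 3 and ranged from -7.76 to -6.94 when each library was left out.

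Among 10 measured genes for carriers of retinol and thyroid hormone and their receptors, Ttr alone passed the threshold. Rbp4, the retinol-binding protein that travels with transthyretin, was at 890, 1058 and 932 CPM under Reference 4 and 842, 875 and 905 CPM in PBS. Those groups overlapped, and its log2 fold change was 0.13 ± 0.11 (adjusted p = 0.636). Serpina7, the gene of thyroxine-binding globulin, was at 44.1, 45.8 and 49.98 CPM against 71.8, 73.0 and 55.6 CPM (-0.50 ± 0.28, adjusted p = 0.428). Its groups did not overlap, and it did not pass the threshold.

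**Figure D2:**
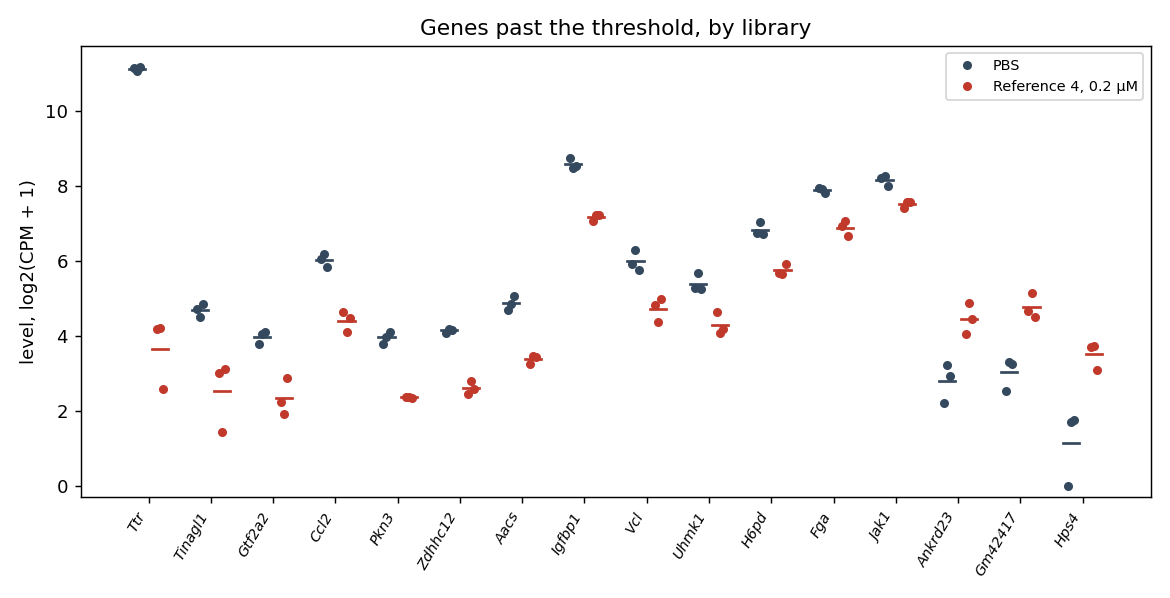
Every library of the comparison is a point for each of the 16 genes past the threshold, on the scale of log2(CPM + 1), with a bar at the group mean, PBS in dark blue and Reference 4 0.2 µM in red. In each of the 16 genes the 3 red points lie wholly below or wholly above the 3 blue points.

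Igfbp1 was the fall with the smallest adjusted p after Ttr. It encodes a secreted protein that binds insulin-like growth factors, is made mainly by the liver, and is a textbook target of FOXO factors that insulin represses. Its gene (ENSMUSG00000020429) spans 7197782 to 7202546 of chromosome 11 on the plus strand. It stood at 133, 149 and 150 CPM under Reference 4 and at 430, 358 and 371 CPM in PBS. The highest treated library was thus less than the lowest PBS library, and the level came to 37.3% of the PBS mean (log2 fold change -1.41 ± 0.18, adjusted p = 1.92e-04). Leaving out each library gave -1.47 to -1.34, and edgeR and DESeq2 on the recovered reads gave adjusted p-values of 0.00146 and 2.63e-08.

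Of 19 measured genes of insulin and growth factor signalling, Igfbp1 alone passed the threshold. The median of that list was -0.10, beside -0.05 over all genes, and 12 of the 19 had a lower mean, or 63.2%, beside 55.4% of all genes. Igfbp4, another binding protein of the family, was at 155, 93.8 and 132 CPM against 179, 185 and 170 CPM (-0.52 ± 0.19, adjusted p = 0.202). Igf1, the growth factor itself, was at 140, 137 and 181 CPM against 233, 207 and 178 CPM (-0.43 ± 0.18, adjusted p = 0.271), and its groups overlapped. Without PBS replicate 3 the list again had Igfbp1 as its single call.

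Fga fell, and the genes of the other fibrinogen chains had lower means that did not pass. Fga, Fgb and Fgg encode the chains of fibrinogen, the plasma protein that thrombin turns into fibrin. Fga (ENSMUSG00000028001, chromosome 3, 83026076 to 83033627, plus strand) was at 122, 135 and 101 CPM under Reference 4 and 245, 243 and 224 CPM in PBS, without overlap. Its log2 fold change was -0.99 ± 0.16 (adjusted p = 0.00732), a level of 50.3% of the PBS mean. Leaving out PBS replicate 1 ended the call (adjusted p = 0.0683), as did fitting these 6 libraries alone (0.265). Fgb was at 823, 618 and 723 CPM against 1448, 1463 and 1055 CPM, also without overlap. Its log2 fold change of -0.87 ± 0.18 had an adjusted p of 0.0518 with every library and of 0.0131 without PBS replicate 3. Fgg, named after its values were seen because it completes the protein, was at 183, 209 and 182 CPM against 248, 252 and 259 CPM (-0.40 ± 0.16, adjusted p = 0.247).

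The starts of Igfbp1, Fga and Fgb are shown because Igfbp1 and Fga are the falls with the smallest p after Ttr and Fgb is the neighbouring fibrinogen gene just outside the threshold. Each run is the RefSeq promoter window on GRCm38.p6, from 250 bases before to 50 after the annotated start, written 5′ to 3′ on the gene's strand. Capitals mark CAAAACA, the core of the insulin response element, and GTTAAT, an HNF1 half-site, each searched on both strands (TGTTTTG and ATTAAC on the other). The windows are chr11:7197537-7197836 on the plus strand for Igfbp1, chr3:83025903-83026202 on the plus strand for Fga and chr3:83049814-83050113 on the minus strand for Fgb.
Igfbp1: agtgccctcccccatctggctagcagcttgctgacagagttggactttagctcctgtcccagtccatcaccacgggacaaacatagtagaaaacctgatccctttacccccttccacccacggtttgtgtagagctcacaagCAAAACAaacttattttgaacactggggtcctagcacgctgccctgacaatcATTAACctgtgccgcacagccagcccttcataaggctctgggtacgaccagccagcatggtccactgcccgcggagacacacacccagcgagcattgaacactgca
Fga: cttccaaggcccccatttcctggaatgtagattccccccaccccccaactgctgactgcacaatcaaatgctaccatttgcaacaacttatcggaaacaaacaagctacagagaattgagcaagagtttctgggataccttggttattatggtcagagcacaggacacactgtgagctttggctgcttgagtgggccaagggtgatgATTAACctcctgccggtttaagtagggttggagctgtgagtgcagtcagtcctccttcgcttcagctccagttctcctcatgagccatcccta
Fgb: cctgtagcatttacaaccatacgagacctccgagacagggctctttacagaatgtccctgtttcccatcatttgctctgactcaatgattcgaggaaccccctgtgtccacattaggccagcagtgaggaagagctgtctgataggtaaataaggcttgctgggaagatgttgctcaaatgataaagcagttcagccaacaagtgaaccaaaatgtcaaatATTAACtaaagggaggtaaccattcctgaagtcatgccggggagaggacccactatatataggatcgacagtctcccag
Counting from the start site, the Igfbp1 window held CAAAACA with its first base at -108 and ATTAAC at -56. The Fga window held ATTAAC at -43 and the Fgb window ATTAAC at -29. Fgg, also searched but not shown, held TGTTTTG at -102 and no HNF1 half-site. The insulin response core was found in 6.28% of all 32851 RefSeq windows of this length, and the HNF1 half-site in 7.10%. Of the 6905 tested genes with a window, 5.29% held the core and 5.66% the half-site in at least 1 window. Of the 13 called genes whose window was searched, 3 held the first (Igfbp1, H6pd and Uhmk1) and 2 the second (Igfbp1 and Fga). Ttr was left out of that search. A match of these letters is a description of the window and not evidence of a bound factor.

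The wider set of 21 measured fibrinogen and coagulation genes held that 1 call. Its median was -0.25, beside -0.05 over all genes, and 14 of 21 members had a lower mean (66.7%, beside 55.4% of all genes). In 8 of them all 3 Reference 4 libraries lay below all 3 PBS libraries, or in 2 above, beside 10.5% and 4.2% of all genes. Fgl1, a fibrinogen-like protein that hepatocytes secrete, was at 87.6, 66.7 and 57.5 CPM against 115, 188 and 113 CPM (-0.95 ± 0.29, adjusted p = 0.149). Hrg, the histidine-rich glycoprotein, was at 12.8, 17.5 and 10.9 CPM against 22.8, 26.5 and 19.4 CPM (-0.71 ± 0.25, adjusted p = 0.189). Members of the list did not share a direction. F12, factor XII of the contact pathway, was at 350, 362 and 305 CPM against 267, 219 and 287 CPM (0.40 ± 0.15, adjusted p = 0.236), and F10, factor X, at 195, 297 and 220 CPM against 154, 167 and 181 CPM (0.48 ± 0.19, adjusted p = 0.253). Without PBS replicate 3 the calls of this list were Fga and Fgb, as in DESeq2 with every library, while edgeR called Fga.

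Among other inducible acute phase proteins, which the liver secretes in inflammation, no gene passed. None of 25 measured members of that list, which leaves out the fibrinogen chains, was called in limma, edgeR or DESeq2, with 3 higher and 3 lower at an unadjusted p under 0.05. The list median was -0.05, the same as that of all genes. Hp, haptoglobin, was at 3104, 3783 and 3874 CPM against 5431, 4772 and 5166 CPM (-0.52 ± 0.15, adjusted p = 0.121), and Apcs, serum amyloid P, at 60.1, 66.3 and 69.1 CPM against 106, 108 and 108 CPM (-0.71 ± 0.19, adjusted p = 0.107). Orm3, an orosomucoid, leaned the other way, at 101, 106 and 80.2 CPM against 63.7, 40.2 and 63.9 CPM (0.79 ± 0.24, adjusted p = 0.136). Without PBS replicate 3 Cp, which encodes ceruloplasmin, was the single call of the list, as a fall.

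Jak1, a tyrosine kinase that relays signals from interferon and interleukin-6 family receptors, fell modestly. It was at 170, 191 and 191 CPM under Reference 4 and 297, 310 and 256 CPM in PBS, without overlap. The log2 fold change was -0.64 ± 0.13 (adjusted p = 0.0430), the smallest among the 16 calls, and edgeR did not call it (adjusted p = 0.106). Raver2 overlaps the end of Jak1 by 4 bases on the opposite strand and was at 69.1, 93.6 and 90.0 CPM against 174, 143 and 173 CPM (-0.95 ± 0.22, adjusted p = 0.0784). How the counting treated strand is not stated in what was used here, so reads of such pairs cannot be assigned with certainty.

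The other members of the receptor, JAK, STAT and SOCS list stayed under the threshold. Jak1 was the call among 24 measured, and 14 had a lower mean, or 58.3%, close to the 55.4% of all genes. The median was -0.21, beside -0.05 over all genes. In 7 of them all Reference 4 libraries lay below all PBS libraries, beside 10.5% of all genes. Cebpb, a transcription factor that drives acute phase genes in hepatocytes, was at 49.7, 57.6 and 50.3 CPM against 85.4, 107 and 72.7 CPM (-0.72 ± 0.17, adjusted p = 0.0864). Its relative Cebpd was at 4.59, 5.68 and 8.70 CPM against 12.8, 18.6 and 15.1 CPM (-1.20 ± 0.30, adjusted p = 0.0972). Both were called in DESeq2, and Cebpb also in limma without PBS replicate 3 (adjusted p = 0.025). Stat6 was at 15.9 ± 3.49 against 26.3 ± 5.59 CPM (-0.69 ± 0.26, adjusted p = 0.227).

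Ccl2, the chemokine that recruits monocytes and a classical target of NF-kB, fell to 31.9% of the PBS mean. Its gene (chromosome 11, 82035571 to 82037453, plus strand) was at 24.0, 16.2 and 21.6 CPM under Reference 4 and at 65.8, 71.7 and 56.3 CPM in PBS. The groups were well separated, with a log2 fold change of -1.61 ± 0.30 (adjusted p = 0.0229). The call was lost without Reference 4 replicate 2 or PBS replicate 1 or 2, and the log2 fold change then stayed within -1.73 to -1.46.

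Ccl2 was the call among 24 measured NF-kB subunits, inhibitors and targets. Of these 21, or 87.5%, had a lower mean, beside 55.4% of all genes. The median was -0.37, beside -0.05 over all genes, and -0.30 without PBS replicate 3, beside -0.14. Sod2, the mitochondrial superoxide dismutase, was at 43.8, 36.0 and 29.6 CPM against 83.8, 80.6 and 69.9 CPM (-1.09 ± 0.28, adjusted p = 0.0972). Cxcl1, a chemokine for neutrophils, was at 8.33, 2.40 and 4.25 CPM against 14.5, 17.7 and 13.4 CPM (-1.55 ± 0.46, adjusted p = 0.132), and Vcam1, an adhesion molecule for leukocytes, at 3.60, 1.60 and 3.44 CPM against 10.6, 9.89 and 6.80 CPM (-1.40 ± 0.42, adjusted p = 0.137). These groups did not overlap in any of the named members, which were named for the smallest p of the list, so this is no separate result. In 6 of the 24 the Reference 4 libraries lay wholly below PBS and in 0 wholly above, beside 10.5% and 4.2% of all genes. Macrophages also express several of these genes. Of their markers Csf1r was at 9.69 ± 1.38 against 9.56 ± 2.67 CPM and Cd68 at 113 ± 53.4 against 81.6 ± 12.1 CPM (SD, n = 3), and 10 of 12 were not measured, so the part of such cells was not tested.

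**Figure D3:**
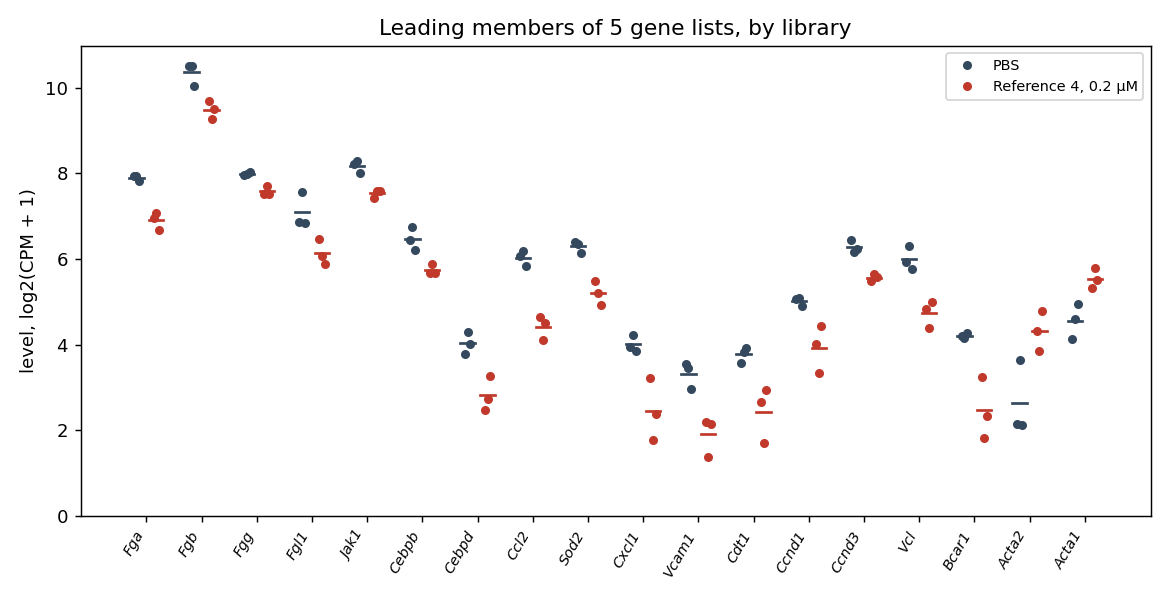
Points are the single libraries for 18 genes of the fibrinogen, JAK and STAT, NF-kB, cell cycle and focal adhesion lists, as log2(CPM + 1), with a bar at each group mean, PBS in dark blue and Reference 4 0.2 µM in red. Only Fga, Jak1, Ccl2 and Vcl of these passed the threshold. The genes were chosen from these lists with their values known, so that every gene drawn has separate groups is no result. Over all genes the groups were separate in 14.7%.

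Vcl and Tinagl1, genes of cell adhesion and of the matrix, fell. Vcl encodes vinculin, which ties integrin adhesions and cell junctions to actin, and was at 27.5, 19.8 and 31.0 CPM under Reference 4 and 60.2, 77.6 and 53.6 CPM in PBS. Its log2 fold change was -1.26 ± 0.22 (adjusted p = 0.0189). Ap3m1 overlaps Vcl by 2235 bases on the opposite strand and was at 55.8 ± 17.7 against 90.5 ± 19.5 CPM, with groups that overlapped (-0.71 ± 0.20, adjusted p = 0.115). Tinagl1, a secreted matrix protein related to cathepsins, was at 7.13, 1.74 and 7.69 CPM against 25.6, 21.9 and 28.2 CPM. Its log2 fold change of -2.17 ± 0.42 (adjusted p = 0.0274) was the largest among the called falls after Ttr, and Reference 4 replicate 2 was its lowest library. Without that library it was -1.63 and no longer called, as it also was not without PBS replicate 1 or 2 or in edgeR (adjusted p = 0.0620).

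Among 43 measured focal adhesion and actin genes Vcl was the call, and members leaned both ways. The median was -0.07, close to that of all genes. Bcar1, the scaffold p130Cas of integrin signalling, was at 8.55, 2.54 and 4.05 CPM against 17.5, 16.8 and 18.2 CPM (-1.74 ± 0.45, adjusted p = 0.0972), and Lims1, an adaptor of integrin-linked kinase, at 9.89, 17.9 and 12.95 CPM against 23.6, 27.4 and 30.6 CPM (-0.98 ± 0.27, adjusted p = 0.113). Acta2, smooth muscle actin, was at 18.9, 13.4 and 26.8 CPM against 3.42, 11.5 and 3.34 CPM (1.68 ± 0.40, adjusted p = 0.0784), and Acta1, skeletal actin, at 38.9, 54.6 and 44.2 CPM against 16.4, 23.4 and 29.9 CPM (0.98 ± 0.26, adjusted p = 0.107). Tpm2, a tropomyosin outside that list, was at 203, 282 and 300 CPM against 110, 141 and 153 CPM (0.94 ± 0.22, adjusted p = 0.0784). Acta2 is also a marker of stellate cells and fibroblasts. Of that list's 12 markers 9, Col1a1, Col1a2, Des, Lrat and Pdgfrb among them, were not among the genes tested, and the part of such cells in these values was not tested. DESeq2 called Bcar1 and Vcl as lower and Acta1, Acta2 and Myl9 as higher. Without PBS replicate 3 limma called Vcl and Acta1. Of 15 extracellular matrix and basement membrane genes Tinagl1 was the call, and of 16 YAP and SRF targets none was called in limma, edgeR or DESeq2, with 2 lower at an unadjusted p under 0.05.

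Falls also touched genes of metabolism. H6pd, which makes NADPH from glucose 6-phosphate inside the endoplasmic reticulum, was at 50.3, 49.4 and 60.2 CPM against 106, 132 and 105 CPM (-1.09 ± 0.22, adjusted p = 0.0430). Aacs, a cytosolic enzyme that activates acetoacetate for lipid synthesis, was at 8.62, 10.1 and 9.98 CPM against 24.99, 28.2 and 32.9 CPM (-1.48 ± 0.27, adjusted p = 0.0221). Both were without overlap, and both calls were lost without either of Reference 4 replicates 1 and 2 or either of PBS replicates 1 and 2.

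The metabolic lists around these genes held no further calls in limma with every library. Of 11 genes of NADPH supply and the pentose phosphate pathway H6pd was the call and 8 had a lower mean (72.7%, beside 55.4% of all genes), with a median of -0.26. Idh1, cytosolic isocitrate dehydrogenase, was at 36.0, 14.8 and 23.2 CPM against 49.4, 54.6 and 45.8 CPM (-1.07 ± 0.30, adjusted p = 0.115), and Pgd, of the pentose phosphate pathway, at 321, 317 and 343 CPM against 404, 449 and 405 CPM (-0.36 ± 0.14, adjusted p = 0.222). In 19 genes of ketone bodies and fatty acid oxidation Aacs was the call, 15 had a lower mean (78.9%) and the median was -0.19. None of 27 cholesterol synthesis and uptake genes was called in limma, edgeR or DESeq2, with 6 lower and 2 higher at an unadjusted p under 0.05. That list's median was -0.23, 19 members had a lower mean (70.4%), and Hmgcs1, which makes the substrate of HMG-CoA reductase, was called as a fall without PBS replicate 3 (adjusted p = 0.0252). None of 18 fatty acid and triglyceride synthesis genes was called by any of the 3 tools, with 1 lower at an unadjusted p under 0.05. Of these 10 had a lower mean (55.6%), with a median of -0.13 that was -0.02 without PBS replicate 3, beside -0.05 and -0.14 over all genes.

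Pkn3 and Zdhhc12 fell together and lie end to end. Pkn3, a serine/threonine kinase, occupies 30077684 to 30091022 of chromosome 2 on the plus strand, and Zdhhc12, a palmitoyltransferase, 30090944 to 30093648 on the minus strand, an overlap of 79 bases. Pkn3 was at 4.24, 4.21 and 4.11 CPM against 12.98, 14.9 and 16.2 CPM (-1.59 ± 0.33, adjusted p = 0.0430), and Zdhhc12 at 4.45, 6.01 and 5.06 CPM against 16.1, 17.3 and 17.0 CPM (-1.54 ± 0.31, adjusted p = 0.0326). With 3′ reads at the shared end and no stated strand mode, these cannot be taken as 2 separate falls. None of the other 6 protein kinase N and C genes described here and none of the other 10 palmitoyltransferases passed the threshold. Over all 16 called genes, 4 overlap a measured gene on the opposite strand (25%), beside 20.8% of all genes.

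Gtf2a2 and Uhmk1 complete the falls. Gtf2a2, the small subunit of the general transcription factor TFIIA, was at 3.74, 2.81 and 6.34 CPM against 12.8, 15.7 and 16.4 CPM (-1.64 ± 0.32, adjusted p = 0.0259). It was the call among 21 measured general transcription factors of RNA polymerase II. Uhmk1, a kinase, was at 23.9, 16.03 and 17.3 CPM against 38.1, 50.1 and 37.2 CPM (-1.10 ± 0.21, adjusted p = 0.0229). For both, no Reference 4 library reached the lowest PBS library.

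The 3 rises came from 2 loci. Hps4, a subunit of the BLOC-3 complex that acts in lysosome-related organelles, was at 12.2, 12.4 and 7.55 CPM under Reference 4 and at 0, 2.25 and 2.39 CPM in PBS. Its log2 fold change was 2.37 ± 0.48 (adjusted p = 0.0420), and PBS replicate 1 had no read of it among 14324315. edgeR did not call it (adjusted p = 0.151), and no other of 13 measured BLOC complex genes passed. Ankrd23, a muscle ankyrin repeat protein, and the protein-coding model Gm42417 share 6691 bases of the minus strand of chromosome 1 from 36530193 to 36536883. Ankrd23 was at 15.6, 28.5 and 21.2 CPM against 3.63, 8.43 and 6.61 CPM (1.68 ± 0.31, adjusted p = 0.0222), and Gm42417 at 24.3, 34.9 and 21.7 CPM against 4.82, 8.84 and 8.66 CPM (1.74 ± 0.29, adjusted p = 0.00732). Since the models overlap on 1 strand, their values cannot be taken as 2 separate rises.

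**Figure D4:**
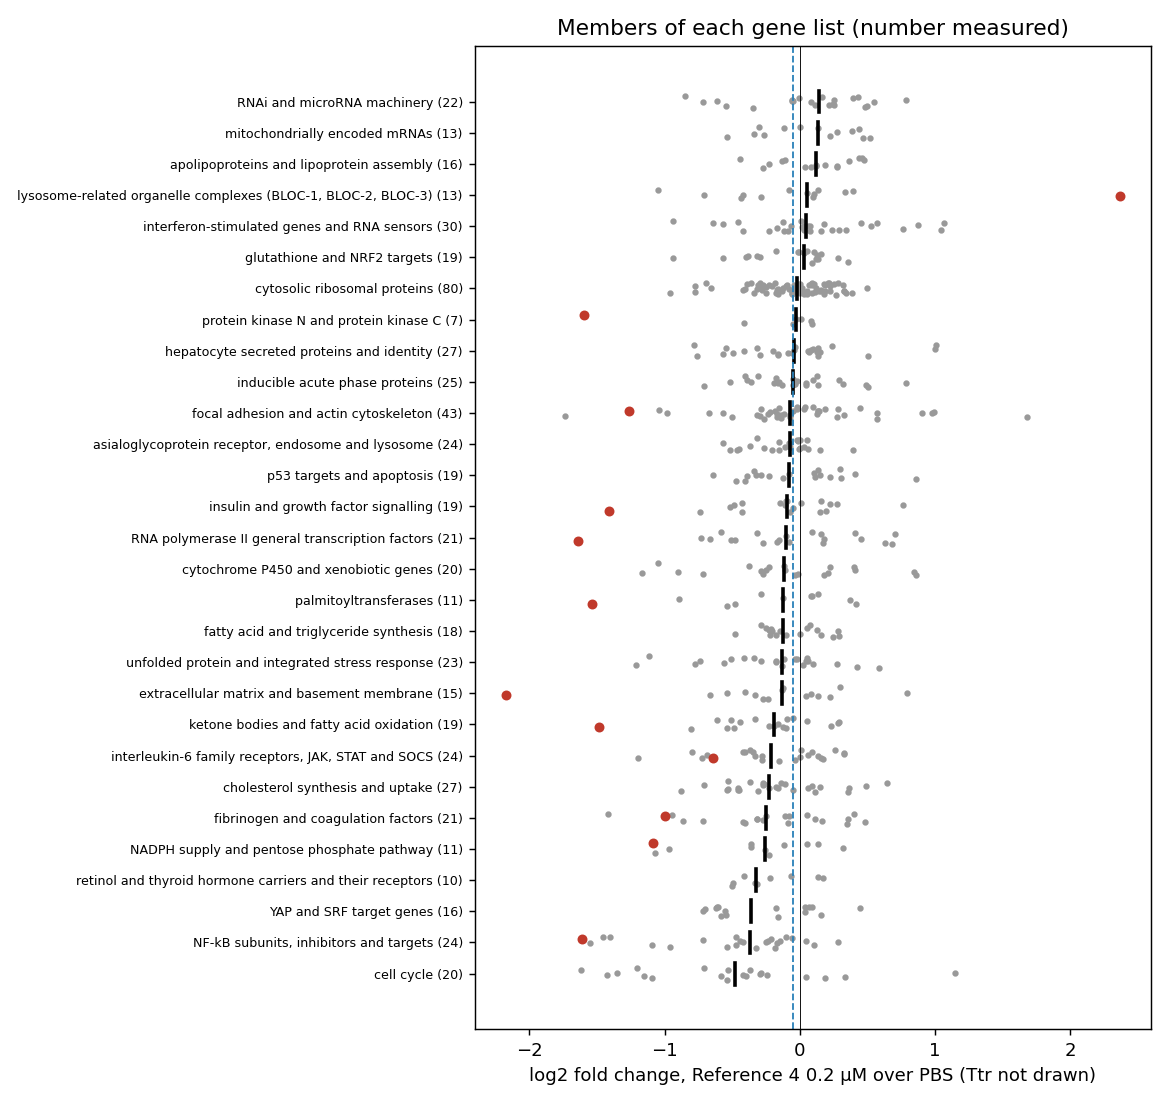
Each row is a gene list with its number of measured genes, each point a member's log2 fold change of Reference 4 0.2 µM over PBS, and each black tick the list median. Red points passed the threshold, the dashed line marks the median of all genes at -0.05, and Ttr, cell type marker lists and lists of under 5 measured genes are not drawn. The medians drawn run from -0.48 for the cell cycle to 0.14 for RNAi and microRNA machinery. The YAP and SRF list is the lowest of them without PBS replicate 3 (-0.53).

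The cell cycle list had a median of -0.48 (-0.49 without PBS replicate 3), without a call in limma, edgeR or DESeq2. Of its 20 measured members 16 had a lower mean (80%, beside 55.4% of all genes). At an unadjusted p under 0.05 there were 8 lower and 0 higher, beside 992 lower and 434 higher of all 9657 genes. Cdt1, which licenses replication origins, was at 5.30, 2.27 and 6.68 CPM against 10.96, 13.3 and 14.3 CPM (-1.35 ± 0.34, adjusted p = 0.0972). Ccnd1, cyclin D1, was at 15.2, 9.15 and 20.6 CPM against 32.5, 33.2 and 29.0 CPM (-1.09 ± 0.31, adjusted p = 0.120), and Ccnd3, cyclin D3, at 43.8, 48.9 and 46.7 CPM against 85.9, 70.3 and 74.0 CPM (-0.71 ± 0.18, adjusted p = 0.0972). In 9 of the 20 the Reference 4 libraries lay wholly below PBS, beside 10.5% of all genes. None of 19 p53 targets and apoptosis genes was called by any of the 3 tools, with 1 higher and 1 lower at an unadjusted p under 0.05.

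Genes that sense or answer foreign RNA gave no call. None of 30 measured interferon-stimulated genes and RNA sensors passed in limma, edgeR or DESeq2, with 6 higher and 2 lower at an unadjusted p under 0.05, and the median was 0.05. Rsad2, the antiviral protein viperin, was at 129, 287 and 137 CPM against 103, 103 and 52.96 CPM (1.05 ± 0.46, adjusted p = 0.302), while Isg15, a ubiquitin-like interferon target, was at 22.7, 13.8 and 7.42 CPM against 32.1, 50.2 and 11.3 CPM (-0.94 ± 0.47, adjusted p = 0.366). Rsad2 and Isg15 differed in direction and their libraries spread widely. Of the 4 members with the smallest p, Ifi35 (0.57), Tlr3 (0.88) and Irf9 (0.45) had higher means and Bst2 (-0.57) a lower mean. Their adjusted p-values in limma were 0.212 to 0.274. In 4 of the 30 the Reference 4 libraries lay wholly above PBS and in 2 wholly below, beside 4.2% and 10.5% of all genes. None of 22 genes of RNAi and microRNA machinery passed in the 3 tools, with 2 higher and 2 lower at an unadjusted p under 0.05. Ago2, the Argonaute that cleaves targets, was at 98.2, 153 and 138 CPM against 115, 123 and 148 CPM (-0.01 ± 0.21, adjusted p = 0.994). That list's median was 0.14 with every library and -0.20 without PBS replicate 3.

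The uptake and trafficking genes were likewise not called. None of 24 genes of the asialoglycoprotein receptor, endosome and lysosome passed in limma, edgeR or DESeq2, with 1 higher and 2 lower at an unadjusted p under 0.05. Asgr1, a subunit of the hepatocyte receptor for galactose-bearing ligands, was at 98.6, 92.0 and 36.4 CPM against 70.6, 78.6 and 59.3 CPM (0.00 ± 0.28, adjusted p = 0.997), with groups that overlapped. Npc1, which exports cholesterol from lysosomes, was at 44.6, 44.6 and 45.5 CPM against 64.9, 68.6 and 67.9 CPM (-0.57 ± 0.16, adjusted p = 0.115), and Ctsd, cathepsin D, at 1348, 1349 and 1340 CPM against 1002, 971 and 1101 CPM (0.40 ± 0.13, adjusted p = 0.169). Both were without overlap and on opposite sides.

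Genes of hepatocyte identity and metabolism of drugs gave no call with every library. None of 27 hepatocyte secreted proteins and identity genes was called in the 3 tools, with 2 higher and 3 lower at an unadjusted p under 0.05 and a median of -0.05. Alb, the gene of serum albumin, was at 3616, 3559 and 3811 CPM against 5809, 5353 and 4384 CPM (-0.49 ± 0.14, adjusted p = 0.115), and it was called as a fall without PBS replicate 3 (0.0344). Hnf4a, a master regulator of hepatocyte genes, was at 27.7, 21.9 and 22.7 CPM against 54.8, 42.0 and 32.0 CPM (-0.78 ± 0.25, adjusted p = 0.154). None of 20 cytochrome P450 and xenobiotic genes passed in the 3 tools, with 3 higher and 3 lower at an unadjusted p under 0.05. Without PBS replicate 3 Sult1a1, a sulfotransferase, was called as a fall (-1.44, adjusted p = 0.0131). Nr1i2, the pregnane X receptor, was at 71.7, 76.0 and 59.7 CPM against 37.4, 41.4 and 34.1 CPM (0.86 ± 0.25, adjusted p = 0.120). Of 16 apolipoprotein and lipoprotein assembly genes 11 had a higher mean and 5 a lower mean (31.25%, beside 55.4% of all genes). None passed in the 3 tools, with 3 higher and 1 lower at an unadjusted p under 0.05. Without PBS replicate 3 Apoa2 and Apoc3 were called as rises.

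The stress and housekeeping lists gave no call in limma either. None of 23 genes answering unfolded proteins or integrated stress passed in limma, edgeR or DESeq2, with 5 lower and 0 higher at an unadjusted p under 0.05. Xbp1, a transcription factor of that response, was at 23.7, 16.5 and 20.3 CPM against 41.3, 51.3 and 41.2 CPM (-1.11 ± 0.31, adjusted p = 0.115). None of 19 glutathione and NRF2 genes passed in the 3 tools, with 0 higher and 3 lower at an unadjusted p under 0.05. Among 80 cytosolic ribosomal protein genes the median was -0.02 and none passed in limma or edgeR, with 6 higher and 10 lower at an unadjusted p under 0.05, while DESeq2 called Rpl22l1 as a fall. Without PBS replicate 3 limma called Rpl41 and Rps15 of that list as rises (adjusted p = 0.0395 and 0.0131). The 13 mitochondrially encoded mRNAs had a median of 0.13, which was -0.07 without PBS replicate 3, and both mitochondrial ribosomal RNAs had a higher mean that turned lower without that library. Neither list had a call in the 3 tools, with 2 higher and 1 lower mRNAs at an unadjusted p under 0.05 and 0 ribosomal RNAs.

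The threshold cut through a run of genes with similar values. Jak1, H6pd and Pkn3 were the last inside at 0.0430, and Fgb was the first outside at 0.0518, followed by Sec61b, a subunit of the protein channel of the endoplasmic reticulum, at 0.0566. Sec61b was at 16.7, 16.3 and 25.4 CPM against 39.9, 41.9 and 38.5 CPM. Gprc5a (0.0602) came next, and Krt17, Adam8, Nrp2, Snx1, Tpm2, Xpot, Ggcx, Mknk1 and Raver2 all stood at 0.0784. At an adjusted p under 0.1 there were 80 genes, 13 higher and 67 lower, and at one under 0.2 there were 484, 106 higher and 378 lower.

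Several genes outside the threshold had larger fold changes than some inside. Cd14, the co-receptor for lipopolysaccharide, was at 7.13, 3.94 and 5.60 CPM against 29.7, 26.2 and 15.5 CPM (-1.90 ± 0.47, adjusted p = 0.0947). Gch1, the first enzyme of tetrahydrobiopterin synthesis, was at 10.1, 10.4 and 4.92 CPM against 23.5, 38.4 and 18.8 CPM (-1.56 ± 0.44, adjusted p = 0.120). Krt17, an epithelial keratin, was at 39.6, 47.4 and 37.6 CPM against 6.84, 12.4 and 23.4 CPM (1.63 ± 0.36, adjusted p = 0.0784). Slc2a2, the glucose transporter GLUT2 of hepatocytes, was at 67.7, 59.4 and 23.7 CPM against 13.05, 23.4 and 18.5 CPM (1.31 ± 0.38, adjusted p = 0.129). Each had separate groups. Of the 8 next falls and 8 next rises of this kind, Cd14, Krt17, Dcxr, Cda, Enho, Slc25a47 and Vipas39 were called once PBS replicate 3 was left out, with adjusted p-values of 0.00944 to 0.0486.

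The 15 called genes other than Ttr were then set beside the other agents at the matched dose and beside Reference 4 at 2 µM. These differences use the same 3 Reference 4 libraries that made the calls, and every fold change against PBS shares the same 3 PBS libraries. Against PBS, limma called 3 genes for TTR-1186 at 0.2 µM (0.0311%), Ttr, Igfbp1 (-1.32, adjusted p = 5.88e-04) and Fga (-1.15, 9.57e-04), and 2 for TTR-1236 (0.0207%), Ttr and Igfbp1 (-0.99, 0.0495). Against TTR-1186 at 0.2 µM 0 of 9657 genes differed in limma, with 475 at an unadjusted p under 0.05 (4.92%), and edgeR and DESeq2 also called 0. All 15 genes had adjusted p-values of 0.942 to 0.993. For Igfbp1 the log2 difference was -0.09 (95% interval -0.46 to 0.28), and TTR-1186 libraries were at 179, 180 and 112 CPM. For Fga it was 0.16 (-0.18 to 0.49), with TTR-1186 libraries at 120, 98.9 and 100 CPM. For Ccl2 it was -0.87 (-1.50 to -0.25), with 55.4, 29.8 and 33.5 CPM. The largest difference among the 15 was that of Tinagl1, at -1.45 (-2.31 to -0.58). The intervals of Gtf2a2 (-0.97, -1.62 to -0.32), Uhmk1 (-0.55, -0.98 to -0.13) and Gm42417 (0.71, 0.12 to 1.30) also excluded 0. Apart from these and Ccl2, the intervals of the 15 genes included 0. These intervals leave room for differences, and missing the threshold is no sign of equal action. The count was 2 without Reference 4 replicate 3.

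Against TTR-1236 at 0.2 µM 0 genes differed in limma, with 1351 at an unadjusted p under 0.05 (14%), 0 in edgeR and 238 in DESeq2. Among the 15 genes adjusted p-values ran from 0.0701 to 0.938 in limma. The fit of only those 6 libraries called 499 genes, among them 6 of the 15, all lower under Reference 4, and DESeq2 called 9 of the 15, also lower. Tinagl1 was at 17.3, 30.5 and 17.1 CPM under TTR-1236, a log2 difference of -1.92 (-2.79 to -1.05) for Reference 4 less TTR-1236. Ccl2 was at 56.4, 62.9 and 45.1 CPM under TTR-1236, a difference of -1.37 (-2.002 to -0.75). For Jak1 the difference was 0.03 (-0.24 to 0.31), and for Hps4 0.33 (-0.67 to 1.32). None of these differences is a call in limma with all 21 libraries. The limma fit of only those 6 libraries called Tinagl1 and Ccl2 (adjusted p = 0.00855 and 0.00139), but not Jak1 or Hps4. Without Reference 4 replicate 3 limma called 18 genes over all.

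Reference 4 itself gave another picture at the higher dose. At 0.2 µM against 2 µM 1239 of 9657 genes differed in limma (12.8%), 584 higher at 0.2 µM (6.05%) and 655 lower (6.78%), with 2714 at an unadjusted p under 0.05 (28.1%). The count was 691 and 549 without Reference 4 0.2 µM replicates 1 and 2, and 631 and 208 without 2 µM replicates 2 and 3. Of the 15 genes 10 differed, which were 9 lower at 0.2 µM and Jak1, which was higher at 0.2 µM. edgeR called the same 10, and DESeq2 called these and Gm42417. The limma fit of only the libraries compared called 8, all lower, without Jak1 and Aacs (adjusted p = 0.0616 and 0.0686). Igfbp1 at 2 µM was at 419, 352 and 336 CPM, against 133, 149 and 150 CPM at 0.2 µM, a log2 difference of -1.35 (-1.71 to -0.98, adjusted p = 2.54e-04). Fga at 2 µM was at 238, 235 and 228 CPM (difference -0.97, -1.31 to -0.64, adjusted p = 0.00210), and Ccl2 at 54.3, 70.2 and 90.3 CPM (-1.74, -2.36 to -1.11, adjusted p = 0.00224). The 2 µM libraries of these genes lay near PBS. Against PBS 217 genes (2.25%) were called at 2 µM, and the log2 fold changes of these 3 were -0.07 for Igfbp1, -0.02 for Fga and 0.12 for Ccl2, with adjusted p-values of 0.88, 0.96 and 0.87.

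Other genes fell at both doses. Jak1 was at 137, 147 and 128 CPM at 2 µM, with a log2 fold change against PBS of -1.06 (adjusted p = 1.34e-04) beside -0.64 at 0.2 µM, and a difference between doses of 0.42 (0.14 to 0.69, adjusted p = 0.0398). Uhmk1 was at 25.6, 20.0 and 24.7 CPM at 2 µM (-0.80 against PBS, adjusted p = 0.0417), and its difference between doses of -0.30 (-0.72 to 0.13) did not pass. The 3 rises were lower in mean at 2 µM and the difference did not pass in limma, with Hps4 at 3.30, 7.96 and 5.59 CPM (0.86, -0.14 to 1.86) and Ankrd23 at 8.67, 13.8 and 14.5 CPM (0.77, 0.13 to 1.41, adjusted p = 0.102). For Gm42417 the difference was 0.78 (0.19 to 1.37, adjusted p = 0.0706 in limma), and DESeq2 called it (0.87, adjusted p = 0.0452). Ttr differed between doses by -0.61 (-1.48 to 0.26), also without a call. Mitochondrial ribosomal RNA took 2.13% to 3.498% of the 0.2 µM libraries and 0.383% to 1.10% of the 2 µM libraries, and its part in the differences between doses was not tested.

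**Figure D5:**
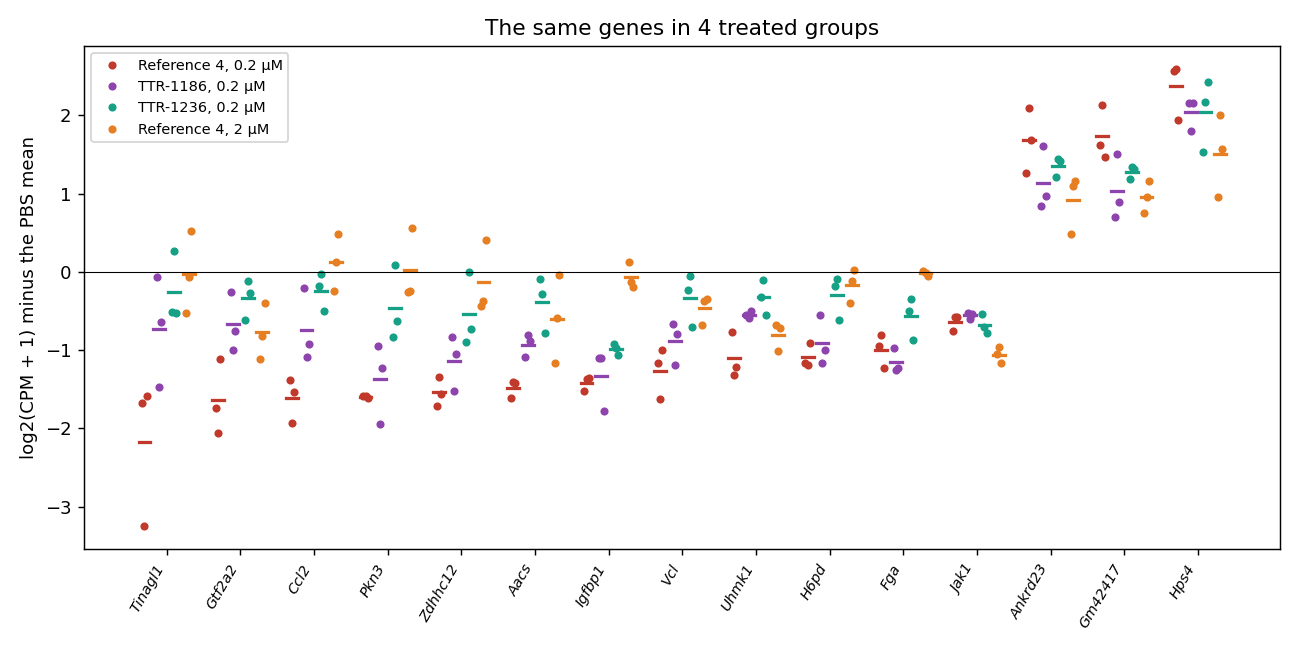
For the 15 called genes other than Ttr, each point is a library of Reference 4 0.2 µM (red), TTR-1186 0.2 µM (purple), TTR-1236 0.2 µM (green) or Reference 4 2 µM (orange), as log2(CPM + 1) less the mean of the 3 PBS libraries, with a bar at the group mean. Igfbp1, Fga and Ccl2 sit near 0 in Reference 4 2 µM, at -0.07, -0.02 and 0.12, and at -1.41, -0.99 and -1.61 in Reference 4 0.2 µM.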

How the data were processed

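Per the submitters' processing notes, reads were handled with cutadapt 1.15, HISAT2 2.1.0 and featureCounts on mouse build mm10. Not given in the sources used here are their settings, annotation release, strand mode and low-count filter. The authors deposited CPM, which sum to 1000000 in each library over 9657 genes. They were whole multiples of 1 read in 100% of values (within 0.001 reads), which gave back the reads and the totals. Symbols and coordinates are from the GENCODE annotation of GRCm38 (9652 identifiers matched), and promoter windows from RefSeq, GRCm38.p6.

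Groups came from agent and dose in the labels. limma 3.58.1 (R 4.3.3) was fitted to log2(CPM + 1) with 7 group means over all 21 libraries, a trended robust prior and no covariate, so the groups share 1 estimate of the spread. P-values were adjusted by Benjamini-Hochberg across the whole table with a threshold of 0.05, intervals are 95% intervals, and fold changes on this scale understate changes of low genes. Shares of reads were compared by exact permutation. Lists are described by counts and medians, without a set test. Genes named were Ttr, all called genes, 8 next falls and rises (mean of at least 10 CPM, no overlap, unadjusted p under 0.01, no predicted genes), up to 4 per list by p, and overlapping neighbours. The genes Adam8, Ago2, Asgr1, Cp, F10, F12, Fgg, Ggcx, Gprc5a, Isg15, Lims1, Mknk1, Myl9, Nrp2, Rbp4, Rsad2, Sec61b, Snx1, Tpm2 and Xpot lie outside it and were named after their values were seen. Some of what the rule picks is left out of the text. Members, lists and tests were chosen with earlier results of these data known. Alternatives were TMM factors, edgeR 4.0.16 and DESeq2 1.42.0 on recovered reads, pseudocounts of 0.5 and 5, a mean of at least 10 CPM, only the libraries compared, a replicate block, and leaving out libraries. An analysis without a low filter is the one reported.

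On simulated reads for this comparison (9657 genes, 200 changed, assumed dispersion 0.05), limma recovered 56% of 2-fold and 100% of 4-fold changes and called 9 unchanged genes.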

Additional observations from a re-analysis of the deposited data

How the results depend on the processing

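With 3 libraries a group, simulation with an assumed dispersion of 0.05 recovered 56% of 2-fold changes. That share rests on the assumed dispersion and on the number of genes simulated as changed, so it does not give the power of this comparison. In the real libraries the median standard error was 0.29. Of 274 genes at least 2-fold lower in the fit 11 were called, and of 157 at least 2-fold higher 3 were called. The counts of calls are therefore limited for changes of that size. The 16 calls became 88 in DESeq2 and 2 in the fit of only the libraries compared, and 2 to 175 when 1 library was left out, the extremes without PBS replicates 1 and 3. Other settings gave 11 to 17. Against TTR-1236 0.2 µM the 0 calls became 238 in DESeq2, 499 with only the libraries compared and 0 to 18 when a library was left out, the last without Reference 4 0.2 µM replicate 3. Against TTR-1186 0.2 µM leaving out libraries gave 0 to 2, and against Reference 4 2 µM 208 to 1148. The cause was not tested. The fall of Ttr passed under every alternative, at -7.76 to -6.94 when a library was left out.

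The labels do not say whether replicate numbers pair the samples. Same-numbered libraries of both groups correlated by 0.121, -0.0986 and 0.131 in their deviations from the group mean. Pairs with different numbers correlated by -0.237 to 0.166. Values this small and mixed do not settle whether replicate numbers share a batch. With the replicate number as a block 11 genes were called, all among the 16, and Ttr was -7.48.

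Of 2133 values of 143 named genes under the alternatives 2007 kept their side of the threshold and direction. Most of the named genes were not called, so much of that number is genes that stayed outside. It does not measure how stable the 16 calls were. The sign turned 12 times, in 8 genes that were not called and only when a library was left out, over ranges of -0.46 to 0.40 for Pkn2, -0.32 to 0.42 for Prkcz, -0.022 to 1.21 for mt-Rnr1, -0.20 to 0.76 for mt-Rnr2, -0.061 to 0.28 for Apoa1, -0.18 to 0.19 for Csf1r, -0.24 to 0.50 for Stab1 and -0.10 to 0.73 for Krt19. The lows of Pkn2, mt-Rnr1 and mt-Rnr2 were those without PBS replicate 3.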

Other observations

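Among genes that stayed outside the threshold, the remaining next falls were genes of signalling, chromatin and lipids. Gnb2, a G protein beta subunit, was at 11.7, 1.87 and 4.18 CPM under Reference 4 and 12.8, 33.8 and 31.8 CPM in PBS (log2 fold change -2.13 ± 0.67, adjusted p = 0.161 in limma). Phc2, a Polycomb protein, was at 6.21, 3.74 and 6.21 CPM against 9.98, 24.96 and 22.4 CPM (-1.59 ± 0.40, adjusted p = 0.0972). Cers2, a ceramide synthase, was at 33.97, 24.6 and 13.7 CPM against 66.6, 90.1 and 53.8 CPM (-1.56 ± 0.47, adjusted p = 0.151). All 8 of these next falls (with Cd14, Bcar1, Pxdc1, Gch1 and Cxcl1) were lower at 0.2 µM than at 2 µM of Reference 4 in limma, with log2 differences of -2.79 for Gnb2 to -1.81 for Cxcl1 and adjusted p-values of 0.0027 for Phc2 to 0.0146 for Cxcl1. The same Reference 4 0.2 µM libraries chose these genes, so that count is no independent evidence.

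The remaining next rises included genes of hepatocyte metabolism. Enho, which encodes the secreted peptide adropin, was at 45.3, 73.6 and 42.2 CPM against 11.8, 20.3 and 29.3 CPM (1.39 ± 0.33, adjusted p = 0.0864). Slc25a47, a mitochondrial carrier of the liver, was at 23.9, 60.3 and 18.2 CPM against 13.5, 4.45 and 15.9 CPM (1.48 ± 0.43, adjusted p = 0.128). Dcxr, dicarbonyl and L-xylulose reductase, was at 52.8, 60.4 and 67.7 CPM against 12.98, 20.6 and 51.5 CPM (1.28 ± 0.40, adjusted p = 0.160), with PBS replicate 3 close to the treated libraries. Of the 8 next rises Acta2 alone differed from Reference 4 2 µM (1.28, adjusted p = 0.0352).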
